A study of Mus musculus with 4 samples.

Results

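Collagen chain genes were compared between the stomachs of Hdc+/+ and Hdc-/- mice of the FVB strain, all labelled as 1 year old. A gene was a member if its symbol in the array annotation had the form Col, a number, the letter a and a number, which gave 44 members among the 22180 genes compared. They fell into 11 fibrillar chains, 6 chains of basement membrane type IV collagen and 27 chains of other classes. The Hdc product, histidine decarboxylase, converts histidine to histamine, and Hdc-/- mice lack it. Total RNA of each genotype was measured on 2 Affymetrix arrays, which the titles call biological replicates. Both genotypes share the strain, the age and the diet. The labels used here do not state the stomach region, the sex of the mice or the deleted part of Hdc. Hdc itself read 3.99 and 3.82 on the Hdc+/+ arrays and 3.77 and 4.06 on the Hdc-/- arrays, so its signal did not separate the genotypes, and each direction is that of the labelled groups. The tissue label was matched by bright gastric genes, such as Gkn1, a gastrokine of the surface epithelium, which read between 12.81 and 13.01. Liver markers were higher on both Hdc+/+ arrays than on either Hdc-/- array, and Hdc+/+ array 2 stood apart in liver, pancreas and intestinal markers.

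Most collagens are secreted proteins, and some are transmembrane. Their alpha chains wind around each other in a long helix, and some types, such as I and IV, combine chains from several genes. Fibrillar collagens such as types I, III and V build the fibrils that give tissue its tensile strength, and in the gut wall fibroblasts and smooth muscle cells make most of them. Type IV collagen forms the sheet-like network under epithelia and around vessels and muscle cells. Many of the remaining classes link, coat or anchor these structures.

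No collagen chain gene passed the test. Each difference is the mean log2 probe set value on the Hdc-/- arrays minus that on the Hdc+/+ arrays, from limma (lmFit and eBayes) fitted on all 22180 genes, and a gene was called at a Benjamini-Hochberg adjusted p under 0.05. Among the 44 members limma called 0 higher and 0 lower, against 1 higher gene (0.00451%) and 0 lower (0.00%) of all genes. At an unadjusted p under 0.05 in limma, 1 member lay higher, Col6a5, and 1 lower, Col14a1, which is 2.27% of the members in either direction, against 3.68% of all genes higher and 4.87% lower. Each share of members rests on 1 gene of 44, so no departure from the background is read from it. The smallest adjusted p of any member was 0.489.

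Most collagen differences were small and above 0. The difference was above 0 in 34 of 44 members (77.3%), against 54.1% of all genes, and the median over the members was 0.14, or 1.10-fold, against 0.02 over all genes. The middle of the members ran from 0.02 to 0.21 between the quartiles. Both Hdc-/- arrays read above both Hdc+/+ arrays in 16 members (36.4%, against 21.5% of all genes), and both read below in 3 (6.82%, against 17.6%). Members are not replicates of a genotype, so these counts describe 4 samples and carry no test. The median was 0.07 without Hdc-/- array 2 and 0.09 without Hdc+/+ array 2. The count above 0 was 30 after cyclic loess normalization and 26 without Hdc+/+ array 2. The median over all genes was 0.00 in both of these fits, and their share of all genes above 0 is not given here. The 95% interval of the difference lay within a 2-fold change either way in 40 of 44 members (90.9%, against 86.0% of all genes). The exceptions were Col6a5, Col14a1, Col24a1 and Col10a1. At least 0.5 in size without overlap, the difference set apart 3 members (6.82%), Col6a5, Col14a1 and Col24a1, against 8.90% of all genes. The probe set values of the 44 members ran from 3.53 to 7.03, and 31 of the 44 had a mean above the median over all genes. Background signal was not measured here.

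**Figure D1:**
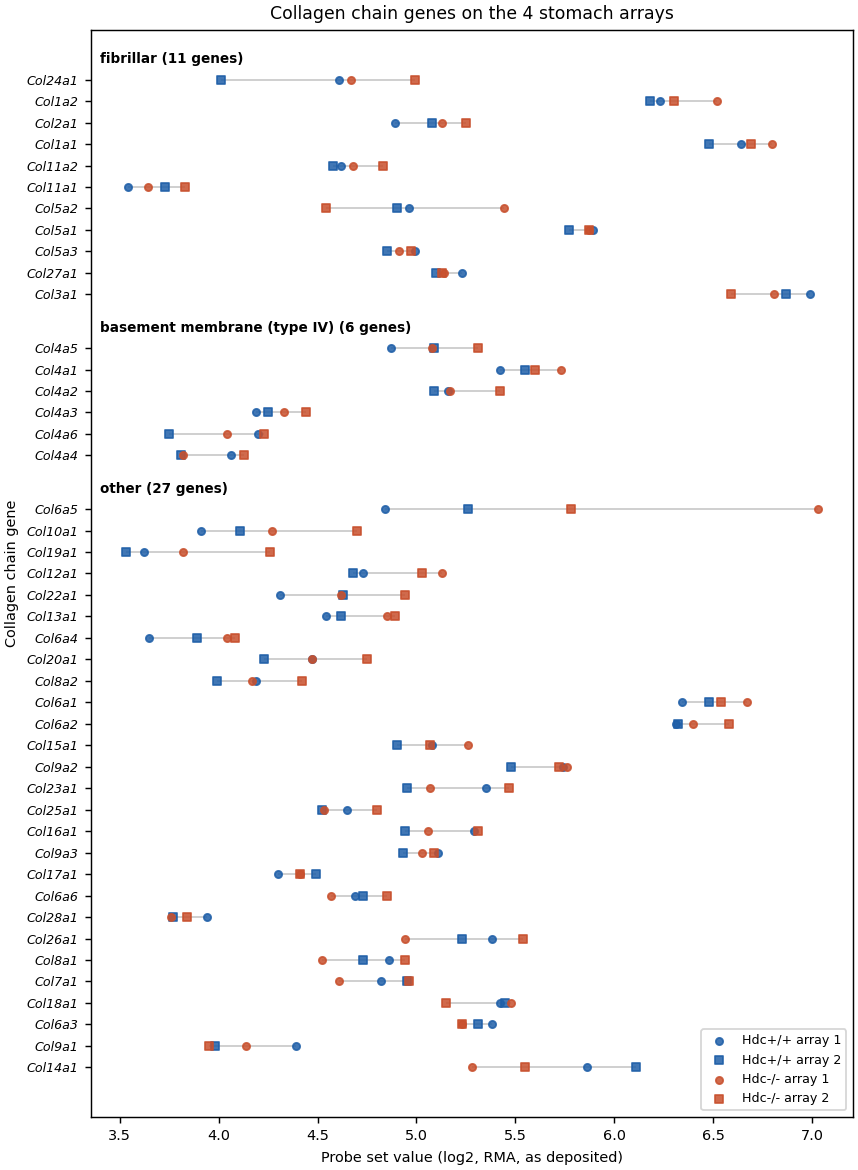
Deposited log2 probe set value (horizontal axis) of each of the 44 collagen chain genes (rows, grouped by class and sorted by difference) on the 2 Hdc+/+ arrays (blue) and the 2 Hdc-/- arrays (orange), with a grey line over the range. Most rows span less than a log2 unit, and Col6a5 reaches 7.03 on Hdc-/- array 1.

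The fibrillar chains of interstitial fibrils differed little between genotypes. Their median difference was 0.10 over 11 genes, with 9 (81.8%) above 0 and 2 below, against 54.1% of all genes above 0. By limma 0 of them were called, with 0 at an unadjusted p under 0.05. Col1a1, the more abundant chain of type I collagen, read 6.64 and 6.48 on the Hdc+/+ arrays and 6.80 and 6.69 on the Hdc-/- arrays. The Hdc-/- arrays were the higher ones without overlap, and the difference was 0.18 (SE 0.17, 95% interval -0.23 to 0.59, n = 2 per group, limma adjusted p = 0.820). Its partner chain Col1a2 read 6.23 and 6.18 against 6.52 and 6.30, a difference of 0.21 (SE 0.17). Within each array Col1a1 minus Col1a2 was 0.41 and 0.31 on the Hdc+/+ arrays and 0.28 and 0.39 on the Hdc-/- arrays, so the balance of the type I chains overlapped between genotypes. Different probe sets bind with different strength, and so a chain ratio is read only for its change between arrays.

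Col3a1, the chain of type III collagen, which runs with type I in the gut wall, was the fibrillar member that lay lower without overlap. It read 6.99 and 6.87 on the Hdc+/+ arrays and 6.81 and 6.59 on the Hdc-/- arrays, a difference of -0.23 (SE 0.17, 95% interval -0.66 to 0.20, limma adjusted p = 0.770). Col3a1 minus Col1a1, a ratio chosen after the values were seen, was 0.34 and 0.39 on the Hdc+/+ arrays and 0.02 and -0.10 on the Hdc-/- arrays. The genotypes did not overlap in this ratio, whose mean differed by -0.41, and the smallest p that an exact permutation test of such a ratio allows with 2 arrays a genotype is 0.333, two-sided.

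The type V chains, which join type I in the core of fibrils and limit their width, lay near 0. Col5a1 read between 5.77 and 5.89 on all 4 arrays, a difference of 0.04 (SE 0.16), and Col5a3 differed by 0.02 (SE 0.16). Col5a2, a neighbour of Col3a1 on the same chromosome, read 4.96 and 4.90 on the Hdc+/+ arrays and 5.44 and 4.54 on the Hdc-/- arrays. The Hdc-/- arrays lay on either side of the Hdc+/+ arrays, and the difference was 0.51 without Hdc-/- array 2 and -0.40 without Hdc-/- array 1. The cartilage fibril chains Col2a1 (0.21, SE 0.17), Col11a1 (0.10, SE 0.17) and Col11a2 (0.15, SE 0.16) and the minor fibrillar chain Col27a1 (-0.03, SE 0.16) lay in the same range. Col24a1, a minor fibrillar chain known from bone, read 4.61 and 4.01 on the Hdc+/+ arrays and 4.67 and 4.99 on the Hdc-/- arrays. Its difference of 0.52 (SE 0.26, limma adjusted p = 0.638) was the largest of the class and was 0.22 without Hdc+/+ array 2, where it read lowest.

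All 6 type IV chains had a difference above 0, against 54.1% of all genes. The differences ranged from 0.04 to 0.22 with a median of 0.17, or 1.12-fold. By limma 0 of the 6 were called, with 0 at an unadjusted p under 0.05. The median was 0.08 without Hdc-/- array 2 and 0.24 without Hdc-/- array 1. Without Hdc+/+ array 2 Col4a4 and Col4a6 turned to -0.08 and -0.07, and without Hdc-/- array 2 Col4a4 turned to -0.11. The main chains, Col4a1 and Col4a2, which assemble together and are transcribed away from each other from neighbouring starts, differed by nearly the same amount. Col4a1 read 5.42 and 5.55 on the Hdc+/+ arrays and 5.73 and 5.60 on the Hdc-/- arrays, a difference of 0.18 (SE 0.17, 95% interval -0.23 to 0.59). Col4a2 read 5.16 and 5.09 against 5.17 and 5.42, a difference of 0.17 (SE 0.17, 95% interval -0.27 to 0.60). Both Hdc-/- arrays lay above both Hdc+/+ arrays for either chain, but a different Hdc-/- array was the high one in each, and Col4a1 minus Col4a2 ran from 0.18 to 0.57 with overlap between the genotypes.

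The minor type IV chains form networks in the kidney filter, the lung and the coat of smooth muscle. Col4a3 read 4.19 and 4.25 on the Hdc+/+ arrays and 4.33 and 4.44 on the Hdc-/- arrays, without overlap (difference 0.17, SE 0.16). Its partner Col4a4 differed by 0.04 (SE 0.19). Col4a5 and Col4a6, which assemble together around smooth muscle and lie head to head on the X chromosome, differed by 0.22 (SE 0.18) and 0.16 (SE 0.21), with overlapping groups. Col4a3, Col4a4 and Col4a6 had means below the median of all genes. The smooth muscle markers lay lower on the Hdc-/- arrays in 10 of 10 genes (median -0.25), and the endothelial markers in 7 of 8 (median -0.30). Over all genes, 10174 of 22180 lay lower. In linear sum, given as log2, the smooth muscle list read 11.88 and 12.00 on the Hdc+/+ arrays and 11.68 and 11.67 on the Hdc-/- arrays, and the endothelial list 7.83 and 8.09 against 7.73 and 7.56. Their part in the type IV values was not tested. In bulk tissue, fewer cells of a type and less RNA per cell cannot be told apart.

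**Figure D2:**
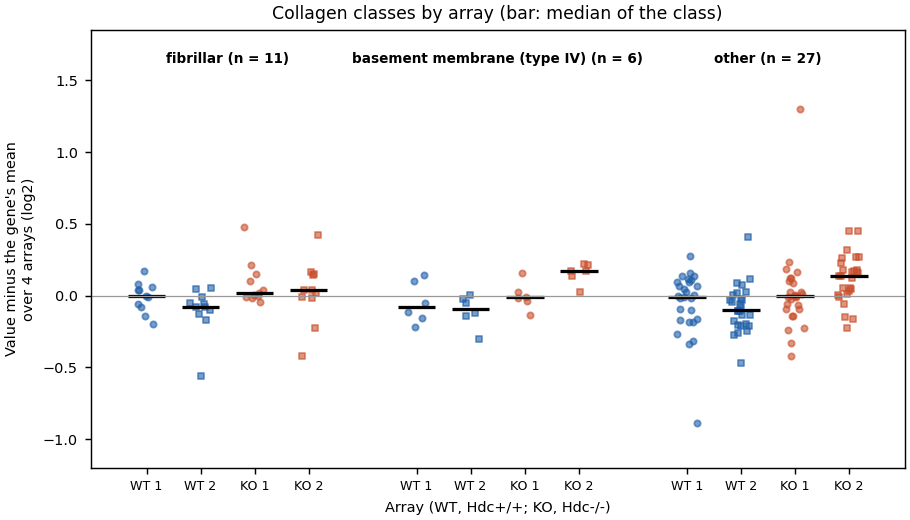
Value of each collagen gene minus its mean over the 4 arrays (vertical axis, log2) on each array (horizontal axis), for the 11 fibrillar, 6 type IV and 27 other chains, with the class median as a bar. The type IV medians are -0.08 and -0.09 on the Hdc+/+ arrays and -0.01 and 0.17 on the Hdc-/- arrays, and the point near the top of the last group is Col6a5 on Hdc-/- array 1.

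The class medians were 0.10 (fibrillar), 0.17 (type IV) and 0.12 (other). Single genes ran from -0.23 to 0.52 in the fibrillar class, from 0.04 to 0.22 in type IV and from -0.57 to 1.35 in the other class. Around gene means, the fibrillar median was 0.00 and -0.08 on the Hdc+/+ arrays and 0.02 and 0.04 on the Hdc-/- arrays. The median of the other chains was -0.01 and -0.10 against 0.00 and 0.14. In each class the lowest array was Hdc+/+ array 2 and the highest Hdc-/- array 2, and Hdc+/+ array 1 lay closer to Hdc-/- array 1 than to Hdc-/- array 2. No difference between the classes was tested.

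Col6a5 showed the largest difference of any member. It encodes the alpha 5 chain of type VI collagen, which forms beaded filaments in the matrix between cells, and it can take the place of the alpha 3 chain. Its probe set, 17530540, read 4.84 and 5.26 on the Hdc+/+ arrays and 7.03 and 5.78 on the Hdc-/- arrays. The groups did not overlap, but the Hdc-/- arrays lay further from each other than Hdc-/- array 2 lay from either Hdc+/+ array. The difference was 1.35, or 2.56-fold (SE 0.42, 95% interval 0.30 to 2.41, n = 2 per group, limma adjusted p = 0.489). It was 0.73 without Hdc-/- array 1 and 1.98 without Hdc-/- array 2. Without Hdc+/+ array 1 it was 1.15, and the unadjusted limma p was then no longer under 0.05. On Hdc-/- array 1 the proline hydroxylase gene P4ha1 and Col5a2 were also at their highest, at 6.61 and 5.44. Both were picked after their values were seen, and the share of all genes highest on that array is not given here. Among the type VI chains, Col6a1 also read higher on it than on Hdc-/- array 2, while Col6a2, Col6a4 and Col6a6 read lower.

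The 250 bases before the RefSeq start of Col6a5 are shown because its difference, though not called, was the largest of any member. Its tandem neighbours on the chromosome had smaller differences, and the contrast with them was not tested. The stretch lies at chr9:105960644-105960893 on the minus strand (RefSeq, build GRCm38.p6). The RefSeq gene as a whole reaches further upstream than this window, so the window lies inside its extent. Capitals mark the match to the GC box GGGCGG.
Col6a5: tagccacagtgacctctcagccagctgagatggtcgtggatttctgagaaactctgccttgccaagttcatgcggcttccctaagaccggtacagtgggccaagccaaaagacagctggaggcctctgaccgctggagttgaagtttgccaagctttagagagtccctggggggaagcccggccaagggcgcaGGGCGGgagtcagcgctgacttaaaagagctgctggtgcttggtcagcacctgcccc
Both strands were searched for the GC box GGGCGG, for the box known as CCAAT and for the TATA box, spelled TATAAA. None of these holds another. The same window held 1 GC box in Col6a5, 2 in Col6a6, and 2 with 1 CCAAT box in Col6a4. Over the 38 windows of 35 members that the table holds, 22 windows (57.9%) contained the GC box, 13 (34.2%) the CCAAT box and 5 (13.2%) the TATA box, against 32.7%, 33.8% and 12.4% of 32851 windows of the same length over all genes. A match describes these letters only.

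The other type VI chains had smaller differences, none of them called. Col6a4 and Col6a6, which flank Col6a5 in a tandem array on chromosome 9, differed by 0.29 (SE 0.17, without overlap) and 0.01 (SE 0.18). Col6a1 and Col6a2, the common partner chains, read 6.34 and 6.48 against 6.67 and 6.54 and 6.31 and 6.32 against 6.40 and 6.58, differences of 0.20 (SE 0.17) and 0.18 (SE 0.16). Col6a3, the usual partner of both, lay lower without overlap, at 5.38 and 5.31 on the Hdc+/+ arrays and 5.23 on both Hdc-/- arrays, a difference of -0.12 (SE 0.16, 95% interval -0.51 to 0.27). Col6a1 minus Col6a2 ran from -0.04 to 0.28 and overlapped between genotypes. A second Col6a1 probe set of lower signal differed by -0.07 (SE 0.18), opposite in sign to the brighter one, while the second probe sets of Col1a2 and Col5a1 differed by 0.13 (SE 0.18) and 0.13 (SE 0.19). A probe set that names Col6a1 together with 3 other genes, among them the ribosomal protein gene Rps21, differed by 0.57 (SE 0.18) and could not be assigned to Col6a1.

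**Figure D3:**
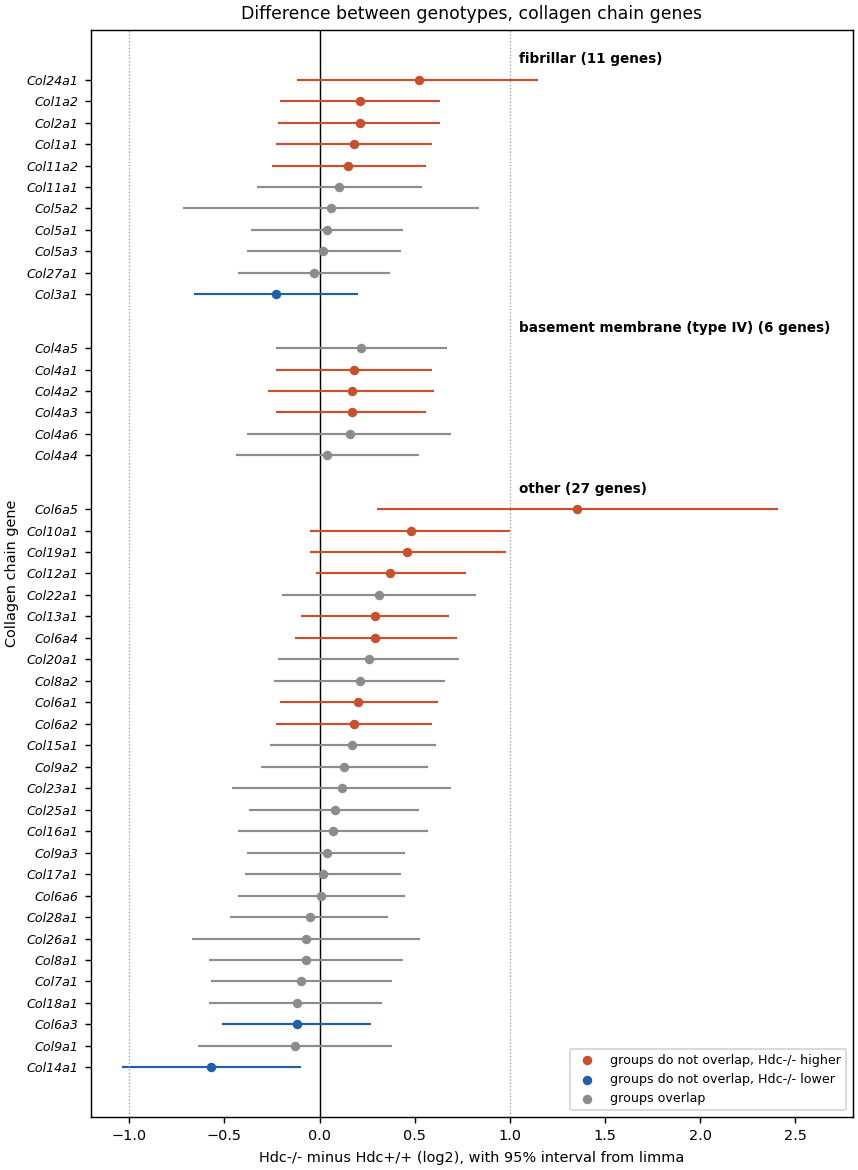
Difference of Hdc-/- minus Hdc+/+ (horizontal axis, log2) with its 95% interval from limma for each collagen gene (rows, by class). Orange and blue points are genes whose groups do not overlap, higher in 16 and lower in 3, grey points overlap, dotted lines mark a 2-fold change, and the intervals of Col6a5 and Col14a1 do not reach 0.

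Col14a1 had the largest difference below 0. It encodes type XIV collagen, a chain of the class that sits on the surface of fibrils through an interrupted helix and is found in dense connective tissue. It read 5.86 and 6.11 on the Hdc+/+ arrays and 5.28 and 5.55 on the Hdc-/- arrays, so both Hdc-/- arrays were low without overlap. The difference was -0.57, or 1.49-fold lower (SE 0.19, 95% interval -1.04 to -0.10, n = 2 per group, limma adjusted p = 0.510). It was -0.44 without Hdc+/+ array 2 and also without Hdc-/- array 1, and in both fits the unadjusted limma p was no longer under 0.05. It was -0.70 with either of the remaining arrays left out.

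The remaining fibril-surface chains lay mostly on the other side of 0. Col12a1, a close relative of Col14a1, read 4.73 and 4.68 on the Hdc+/+ arrays and 5.13 and 5.03 on the Hdc-/- arrays, a difference of 0.37 (SE 0.16, 95% interval -0.02 to 0.77, limma adjusted p = 0.596). The arrays of a genotype lay close together and the groups did not overlap, and the difference stayed between 0.32 and 0.43 with each array left out in turn. Col19a1, known for its part in the muscle of the lower oesophagus, read 3.62 and 3.53 against 3.82 and 4.26, a difference of 0.46 (SE 0.21) that was 0.24 without Hdc-/- array 2. Col22a1, a chain of muscle-tendon junctions, differed by 0.31 (SE 0.21) and Col20a1 by 0.26 (SE 0.19), both with overlap. The chains of type IX, a cartilage collagen, differed by -0.13 (Col9a1, SE 0.21), 0.13 (Col9a2, SE 0.18) and 0.04 (Col9a3, SE 0.17), and Col16a1 by 0.07 (SE 0.20).

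**Figure D4:**
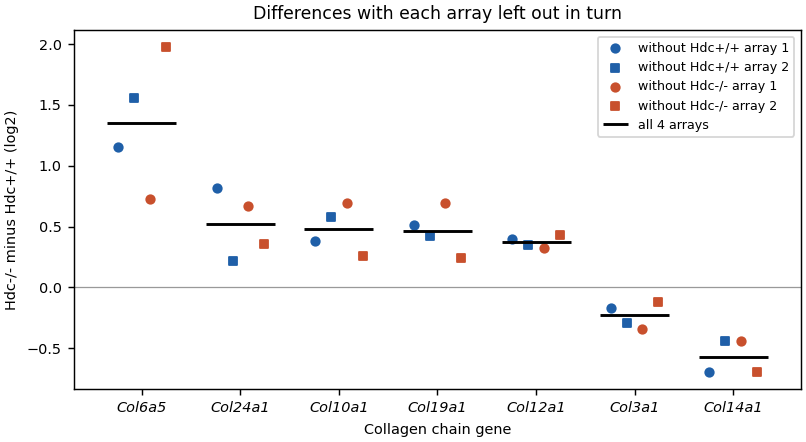
Difference of Hdc-/- minus Hdc+/+ (vertical axis, log2) of 7 collagen genes (horizontal axis) over all 4 arrays (bar) and with each array left out in turn (points). Col6a5 ranges from 0.73 to 1.98, Col12a1 from 0.32 to 0.43, and none of the 7 changes sign.

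Collagens of the epithelial edge, which hold stratified epithelium to the tissue below, lay near 0. Col17a1, the transmembrane collagen of hemidesmosomes, read 4.30 and 4.49 on the Hdc+/+ arrays and 4.41 on both Hdc-/- arrays, a difference of 0.02 (SE 0.17, 95% interval -0.39 to 0.43). Col7a1, which forms the anchoring fibrils below stratified epithelium, read 4.82 and 4.95 against 4.61 and 4.96, a difference of -0.10 (SE 0.19, 95% interval -0.57 to 0.38). On the same arrays 9 of 9 squamous markers lay lower, from -2.45 (Sprr3) to -0.13 (Trp63), with a median of -1.35. Of these, 8 had an unadjusted limma p under 0.05, against 4.87% of all genes lower, and 0 were called. The exception was Trp63 (SE 0.22), whose groups overlapped and whose difference was 0.06 without Hdc+/+ array 2. The squamous list read 8.80 and 9.31 in linear sum (log2) on the Hdc+/+ arrays and 7.17 and 7.81 on the Hdc-/- arrays. The difference between these collagens and the markers was not tested.

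The multiplexins Col15a1 and Col18a1, which link basement membranes to the matrix around vessels and epithelia, differed by 0.17 (SE 0.17) and -0.12 (SE 0.18). Col18a1 read 5.42, 5.45 and 5.48 on 3 arrays and 5.15 on Hdc-/- array 2. Of the short-chain network collagens, Col10a1, known from growth plate cartilage, read 3.91 and 4.11 on the Hdc+/+ arrays and 4.27 and 4.70 on the Hdc-/- arrays. Its difference was 0.48 (SE 0.21, 95% interval -0.05 to 1.00, limma adjusted p = 0.603) and 0.26 without Hdc-/- array 2, and its signal lay below the median of all genes. The vessel-associated Col8a1 and Col8a2 differed by -0.07 (SE 0.20) and 0.21 (SE 0.18), with overlap. Col13a1, a transmembrane collagen of cell adhesion sites, read 4.54 and 4.62 against 4.85 and 4.89, a difference of 0.29 (SE 0.16) without overlap. The transmembrane chains Col23a1 and Col25a1 differed by 0.12 (SE 0.23) and 0.08 (SE 0.18), and Col26a1 and Col28a1 by -0.07 (SE 0.24) and -0.05 (SE 0.17).

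Genes of the collagen pathway were then read from lists chosen with earlier results of these data known. In these lists limma called 0 genes in either direction. Of 17 measured genes that fold and modify the chains, 9 lay above and 8 below 0 (median 0.05), with 0 at an unadjusted p under 0.05 in limma. Ppib, a prolyl isomerase of collagen folding, read 8.53 and 8.34 on the Hdc+/+ arrays and 8.83 on both Hdc-/- arrays (difference 0.39, SE 0.17), and the collagen chaperone gene Serpinh1 differed by -0.20 (SE 0.19). Of 11 genes that trim propeptides or crosslink fibrils (median -0.04), 2 lay lower at an unadjusted p under 0.05 in limma, against 4.87% of all genes. Pcolce2, which speeds the cleavage of procollagen, read 5.08 and 5.40 against 4.59 and 4.65 (difference -0.62, SE 0.18, adjusted p = 0.462). Loxl3, a lysyl oxidase that crosslinks collagen, read 4.39 and 4.44 against 3.96 and 3.92 (difference -0.48, SE 0.16, adjusted p = 0.506). The best known crosslinking enzyme gene, Lox, differed by 0.21 (SE 0.32). Of 15 genes of collagen breakdown and its inhibitors (median 0.07), 0 reached an unadjusted p under 0.05 in limma, and the inhibitor gene Timp3 differed by -0.45 (SE 0.18) while the gelatinase gene Mmp2 differed by -0.15 (SE 0.17).

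Among 8 collagen receptors the median difference was 0.29, with 7 above 0, against 54.1% of all genes. Of these, 2 had an unadjusted p under 0.05 in limma, against 3.68% of all genes higher. Itga1, the integrin alpha 1 subunit that binds type IV and type I collagen, read 5.26 and 5.37 on the Hdc+/+ arrays and 6.50 on both Hdc-/- arrays. Arrays of a genotype were nearly equal and the groups lay well apart, with a difference of 1.19 (SE 0.16, limma adjusted p = 0.247) that stayed between 1.13 and 1.24 with each array left out in turn. Ddr1, the collagen receptor kinase of epithelia, read 7.18 and 7.32 against 7.76 and 7.68 (difference 0.47, SE 0.16, adjusted p = 0.529). Ddr2, its relative in connective tissue cells, lay on the other side of 0 without overlap, at 6.50 and 6.94 against 6.46 and 6.19 (difference -0.40, SE 0.22, limma adjusted p = 0.668).

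Partners of type IV collagen in the basement membrane went both ways. Of 15 measured, 8 lay above and 7 below 0 (median 0.03). At an unadjusted p under 0.05 in limma 2 lay lower, against 4.87% of all genes. Nid1, the nidogen that bridges laminin and type IV collagen, read 6.77 on both Hdc+/+ arrays and 6.00 and 5.76 on the Hdc-/- arrays, a difference of -0.89 (SE 0.17, limma adjusted p = 0.303). Lama4, the laminin chain of vessels and muscle, read 5.16 and 5.44 against 4.79 and 4.58 (difference -0.61, SE 0.19, adjusted p = 0.482). Lamb3, a laminin chain of epithelial anchoring, read 7.21 and 7.49 against 7.66 and 8.38 (difference 0.67, SE 0.28, adjusted p = 0.591). In the TGF-beta list, whose ligands raise collagen transcription in fibroblasts, the median was 0.05 over 15 genes. An unadjusted limma p under 0.05 was reached by 2 genes above 0 and 2 below, against 3.68% and 4.87% of all genes. The higher genes were Smad2, a signal transducer (0.72, SE 0.16), and Ccn2, the connective tissue growth factor gene (0.59, SE 0.17). The lower genes were the ligands Tgfb2 (-0.57, SE 0.16) and Tgfb3 (-0.65, SE 0.19), and Tgfb1 differed by 0.10 (SE 0.20).

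**Figure D5:**
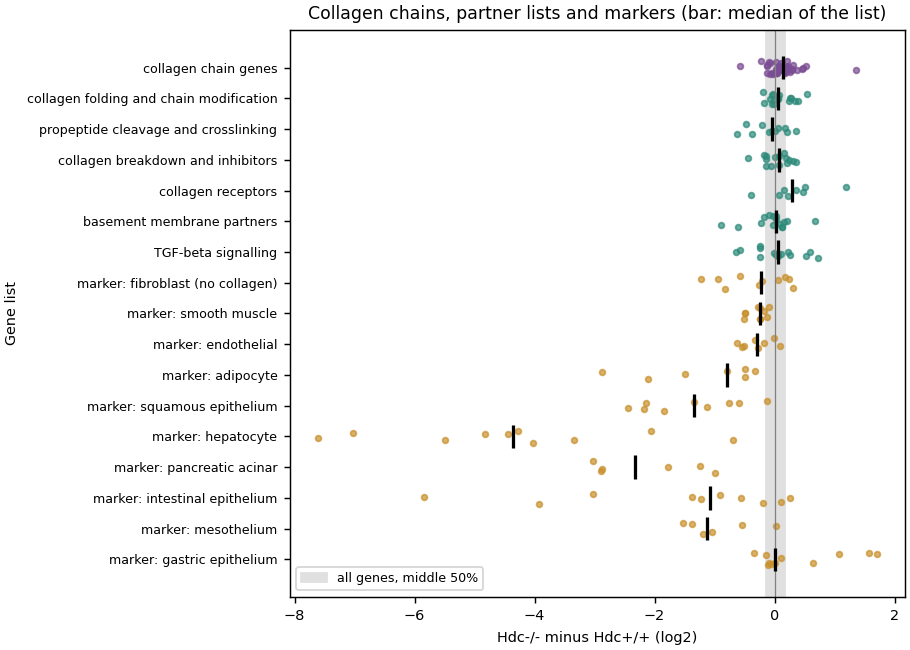
Difference of Hdc-/- minus Hdc+/+ (horizontal axis, log2) of each measured gene in the collagen family, the 6 partner lists (green) and the 10 marker lists (amber), with the list median as a bar and the middle 50% of all genes shaded. The collagen median is 0.14, the fibroblast marker median -0.23 and the hepatocyte marker median -4.36.

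Markers of the cells that make collagen, and of other organs, were read on the same arrays, and limma called 0 genes of any marker list. Over all genes, 4.87% lay lower at an unadjusted p under 0.05 in limma. Of 10 fibroblast markers other than collagens (median -0.23), 6 lay below 0 and 4 of them at an unadjusted p under 0.05 in limma, with 0 called. These were the fibril-binding genes Lum (-1.23, SE 0.21), Dpt (-0.95, SE 0.17) and Dcn (-0.82, SE 0.19) and the microfibril gene Mfap5 (-0.57, SE 0.19). The 4 markers above 0 were Fbln1 (0.30, SE 0.26), the fibroblast receptor gene Pdgfra (0.24, SE 0.27), Fbln2 (0.18, SE 0.21) and Pi16 (0.06, SE 0.24). The fibroblast list read 11.09 and 11.16 in linear sum (log2) on the Hdc+/+ arrays and 10.46 and 10.58 on the Hdc-/- arrays. Its brightest genes were Dcn (10.15 and 10.09 against 9.11 and 9.48) and Dpt (9.02 and 9.13 against 8.04 and 8.22). These genes make up most of the sum, so it does not stand for the whole list. The 44 collagens read 10.65 and 10.60 in linear sum (log2) against 10.77 and 10.74. The median of the adipocyte list was -0.80 over 7 genes, of the mesothelial list -1.13 over 6 and of the intestinal list -1.07 over 10. The hepatocyte list had a median of -4.36 over 10 genes and read 12.23 and 13.80 in linear sum (log2) on the Hdc+/+ arrays and 9.11 and 9.66 on the Hdc-/- arrays, so it was high on both Hdc+/+ arrays. The pancreatic list had a median of -2.33 over 6 genes and read 7.62 and 12.46 against 7.68 and 7.82. Without Hdc+/+ array 2, the only array on which it was high, its median was 0.08. The intestinal list was also highest on that array, at 10.39 and 12.55 against 9.34 and 9.23. The gastric epithelial list had a median of 0.01 over 11 genes, with 6 above 0 and 5 below. At an unadjusted p under 0.05 in limma 3 of them lay higher, against 3.68% of all genes, and 0 lower. The higher ones were Cblif (1.07, SE 0.25), Pga5 (1.70, SE 0.64) and Pgc (0.64, SE 0.25). Muc6 read 11.94 on Hdc-/- array 1 and between 8.40 and 9.30 on the remaining arrays. The part of these markers in the collagen values was not tested.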

How the data were processed

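The authors deposited log2 probe set values. The tools RMA, oligo and Affymetrix Power Tools are listed per the submitters' processing notes, with no version. No genome build is named in the labels used here. Biotin-labelled cDNA was made from 5.5 ug of total RNA, per the labels' protocols. Of 41345 probe sets, 23521 had 1 gene symbol, 1814 several and 16010 none. Probe sets with 1 symbol were kept, and each gene was represented by its brightest probe set on average. The 44 members came from 47 such probe sets, 3 genes having a further one, and all 44 matched the RefSeq gene table of GRCm38.p6 by symbol. limma 3.58.1 in R 4.3.3 compared the genotypes over 22180 genes without covariates, with 2 residual and 3.62 prior degrees of freedom, and the small number of arrays limits precision. On simulated data, only the median estimates of the fit were checked against known differences. The number of genes called in that check is not reported here. The members, the classes, the 16 partner and marker lists and the naming rule were chosen with earlier results of these data known. Every member could be named, and for each list the genes with the smallest p, with others as a description chosen after their values were seen. No dim gene was left out. The alternatives left out dim genes, averaged probe sets, changed the normalization, the prior or the features tested, used the replicate number as a block, and left out each array in turn.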

Additional observations from a re-analysis of the deposited data

How the results depend on the processing

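limma called 0 collagen chain genes in either direction under every alternative run, the replicate block included. At an unadjusted p under 0.05 in limma the block gave 1 higher and 1 lower, as without it. The higher count was 2 with the dimmest 50% of genes left out (which drops 13 members) and after quantile normalization. Leaving out single arrays, it ran from 1 to 3, and the lower count from 0 to 1. Same-numbered arrays of the genotypes deviated with a correlation of -0.119. The crossed replicate block was therefore added after seeing the data, and it gave 2 higher. The share of all genes at this p is not given for these alternatives, so no departure from the background is read from the counts. Apart from leaving out arrays, 423 of 427 gene values kept their direction, but most of them could not have turned. Leaving out dim genes, changing the prior, adding a block or testing every probe set does not alter a difference. Averaging probe sets could alter only the 3 genes with a further one. The 4 values that turned did so after cyclic loess normalization: Col5a3 (-0.02), Col6a6 (-0.03), Col9a3 (0.00) and Col17a1 (-0.01). With the dimmest 50% of genes left out the medians were 0.06 (fibrillar), -0.15 (breakdown), 0.19 (receptors), -1.15 (adipocyte) and -1.85 (squamous).

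Leaving out single arrays, the list medians ran from 0.07 to 0.19 (all collagen chains), 0.08 to 0.10 (fibrillar), 0.08 to 0.24 (type IV), 0.03 to 0.20 (other collagens), 0.04 to 0.14 (folding), -0.09 to -0.04 (crosslinking), -0.07 to 0.15 (breakdown), 0.21 to 0.35 (receptors), -0.08 to 0.06 (basement membrane partners), -0.08 to 0.10 (TGF-beta), -0.30 to -0.20 (fibroblast), -0.37 to -0.16 (smooth muscle), -0.37 to -0.19 (endothelial), -1.53 to -1.12 (squamous), -4.73 to 0.08 (pancreatic), -1.19 to -0.45 (adipocyte), -5.60 to -3.24 (hepatocyte), -1.66 to -0.43 (intestinal), -1.35 to -0.63 (mesothelial) and -0.06 to 0.35 (gastric). The 19 genes that changed sign in some such fit ran from -0.11 to 0.19 (Col4a4), -0.07 to 0.38 (Col4a6), -0.02 to 0.10 (Col5a1), -0.40 to 0.51 (Col5a2), -0.05 to 0.10 (Col5a3), -0.09 to 0.03 (Col27a1), -0.27 to 0.08 (Col7a1), -0.37 to 0.23 (Col26a1), -0.14 to 0.03 (Col28a1), -0.13 to 0.14 (Col6a6), -0.34 to 0.07 (Col9a1), 0.00 to 0.26 (Col9a2), -0.06 to 0.13 (Col9a3), -0.10 to 0.25 (Col16a1), -0.29 to 0.04 (Col18a1), -0.28 to 0.14 (Col8a1), -0.07 to 0.12 (Col17a1), -0.09 to 0.32 (Col23a1) and -0.05 to 0.21 (Col25a1). In these fits a genotype left with 1 array borrows its spread from the other genotype. Background signal was not measured here, so dim probe sets carry an unknown share of it.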

Other observations

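Proteins that carry a collagen-like helix without being collagen chains were read from a list added after seeing the data, with 25 genes measured and a median difference of -0.09, against 0.14 for the 44 collagen chains. limma called 0 of them, and at an unadjusted p under 0.05 in limma 2 lay higher and 4 lower, against 3.68% and 4.87% of all genes. The lower ones included Adipoq, the adiponectin of fat cells, which read 6.07 and 6.80 on the Hdc+/+ arrays and 4.14 and 4.50 on the Hdc-/- arrays, and Mbl2, a mannose-binding lectin made in liver, which read 4.78 and 6.92 against 3.89 and 3.68. The higher ones were Sftpd, a surfactant lectin of mucosal surfaces, at 3.98 and 3.72 against 5.43 and 4.38, and Scara3, a scavenger receptor-like gene, at 5.58 and 5.80 against 6.57 and 6.07. For Sftpd and Scara3, as for Col6a5, the higher Hdc-/- array was array 1, and the share of all genes with this order is not given here. Genes of the list that macrophages make lay on both sides of 0, and none of the 6 named here reached an unadjusted p under 0.05 in limma. The complement genes C1qa (0.41, SE 0.22), C1qb (0.31, SE 0.23) and C1qc (0.44, SE 0.25) lay above 0, and the scavenger receptor genes Marco (-0.45, SE 0.30) and Msr1 (-0.14, SE 0.36) and the ficolin gene Fcna (-0.33, SE 0.19) below.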
